A study of Mus musculus with 12 samples.

Results

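Itih3, Plg, Cp, Fga and Ahsg, 5 of the 13581 genes measured, were chosen by name as genes whose proteins are secreted into the blood plasma, and their 5-hydroxymethylcytosine (5hmC) was followed through mouse development. Tet enzymes make 5hmC by oxidising 5-methylcytosine in DNA, and in many tissues the bodies of active genes carry it. Hepatocytes make and secrete most plasma proteins. The liver of an embryo is also a site of blood formation, which it gives up after birth. Itih3 encodes a heavy chain of the inter-alpha-trypsin inhibitors, which is attached to hyaluronan in the extracellular matrix. Plg encodes plasminogen, the precursor of the fibrin-dissolving protease plasmin, and Cp encodes ceruloplasmin, a copper-carrying enzyme that oxidises iron. Fga encodes the alpha chain of fibrinogen, the protein of the clot. Ahsg encodes fetuin-A, a cystatin-type protein that binds calcium phosphate mineral.

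The 12 libraries came from liver and heart of C57BL6/j mice at 8 weeks (W8), in the newborn at day 1 to 2 (P1) and at embryonic day 14 (E14), and from EB5 embryonic stem cells (ESC), a line of 129/Ola background grown with LIF. W8 liver, P1 liver, W8 heart, P1 heart and ESC had 2 libraries each, while E14 liver and E14 heart had 1 each. A modified glucose was attached to 5hmC in sheared DNA, biotin was joined to that sugar and the fragments bound by streptavidin were sequenced, so levels are relative and give no share of cytosines. Whole tissue was used, and fewer hepatocytes cannot be told apart from less 5hmC per hepatocyte. Values are FPKM, reads scaled by region length and library depth, over the gene body and over a promoter window of 4000 bp around the start. Differences are log2 values with their standard error (SE) from limma, with p-values adjusted over all genes tested by the method of Benjamini and Hochberg and called under 0.05.

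Depth limited the short genes and 1 library. In mm9 the bodies, exons and introns together, spanned 13188 bp for Itih3 (31721759 to 31734946, minus strand), 38776 bp for Plg (12573475 to 12612250, plus strand) and 50077 bp for Cp (19859069 to 19909145, plus strand). Those of Fga (82832075 to 82837537) and Ahsg (22894115 to 22899511), both on the plus strand, spanned 5463 and 5397 bp. RefSeq places Itih3 on chromosome 14, Plg on 17, Cp and Fga on 3 and Ahsg on 16. W8 heart replicate 2 held 142778 reads over all gene bodies, against 604012 to 5761636 in the other libraries, and 9.94% of its bodies had no read. Over Ahsg it held 1 read and over Fga 5 reads, so several differences that rest on it are given with and without it, and the correlations only with it. Labels were checked against genes that mark a tissue. The summed body level of 17 cardiac sarcomere genes was 25.6 to 39.6 FPKM in heart libraries, against 11.2 to 18.4 FPKM in liver libraries. Hnf4a, a transcription factor of hepatocytes, had 2.12 and 2.04 FPKM in W8 liver, against 0.539 and 0.801 FPKM in W8 heart. Alb, another liver gene set as a check, did not separate the adult tissues. It had 0.279 and 0.324 FPKM in W8 liver, against 0.320 FPKM in W8 heart replicate 1 and 1.57 FPKM in the shallow replicate 2. Reads were paired and 75 bp long in P1 and ESC libraries but single and 50 bp long in W8 and E14 libraries. Stage comparisons of W8 or E14 with P1 thus cannot be told apart from read format, nor ESC against tissue from strain.

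The start regions of these genes are shown because CpG sites are where 5hmC mostly lies. They are only a part of the 4000 bp promoter windows. Body and window levels are both given below, and the difference between them was not tested. RefSeq's table of promoters (GRCm38.p6, 250 bases before to 50 after the start) held an entry for Itih3, Cp, Fga and Ahsg. Each is printed 5′ to 3′ on the gene's strand with the CpG dinucleotides in capitals, at chr14:30923538-30923837 (minus), chr3:19956999-19957298 (plus), chr3:83025903-83026202 (plus) and chr16:22891765-22892064 (plus) in the order of the lines.
Itih3: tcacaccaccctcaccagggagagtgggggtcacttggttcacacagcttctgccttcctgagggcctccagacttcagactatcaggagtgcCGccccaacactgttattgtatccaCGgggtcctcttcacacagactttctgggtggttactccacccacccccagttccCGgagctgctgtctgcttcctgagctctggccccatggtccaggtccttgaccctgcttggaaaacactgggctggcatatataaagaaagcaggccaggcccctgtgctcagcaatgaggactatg
Cp: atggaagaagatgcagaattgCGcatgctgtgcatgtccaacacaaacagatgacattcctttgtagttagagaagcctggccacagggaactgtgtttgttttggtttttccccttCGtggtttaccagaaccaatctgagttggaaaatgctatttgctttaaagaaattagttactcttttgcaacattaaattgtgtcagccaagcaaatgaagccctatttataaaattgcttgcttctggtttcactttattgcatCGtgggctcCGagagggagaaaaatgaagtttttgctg
Fga: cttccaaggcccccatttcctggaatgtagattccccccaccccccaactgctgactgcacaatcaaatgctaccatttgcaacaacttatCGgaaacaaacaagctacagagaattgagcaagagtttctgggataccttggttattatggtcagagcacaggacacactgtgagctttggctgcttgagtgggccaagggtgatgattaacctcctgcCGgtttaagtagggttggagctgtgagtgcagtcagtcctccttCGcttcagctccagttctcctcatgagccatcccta
Ahsg: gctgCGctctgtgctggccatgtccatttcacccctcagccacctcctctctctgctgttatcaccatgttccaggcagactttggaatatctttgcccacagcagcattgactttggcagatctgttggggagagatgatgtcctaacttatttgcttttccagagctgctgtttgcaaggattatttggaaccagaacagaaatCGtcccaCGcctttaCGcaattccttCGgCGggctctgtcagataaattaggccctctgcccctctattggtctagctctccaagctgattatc
The dinucleotide CG stood 3 times in the Itih3 and Fga sequences, 4 times in Cp and 6 times in Ahsg, against a median of 7 over 32851 promoters of the same length. As few as those were held by 31.4% of all promoters for Itih3 and Fga, by 38.0% for Cp and by 47.9% for Ahsg. For Cp, the entry was the one of 2 whose gene length was nearest to that of the deposited table.

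Over the bodies of Itih3, Plg and Cp no 5hmC difference between adult and newborn liver passed, with estimates from 0.01 to 0.41. In adult liver the level over Ahsg was lower, and that over Fga was about as much lower but with a wider error. Over Itih3 the level was 2.71 and 2.94 FPKM in W8 liver, against 2.94 and 2.58 FPKM in P1 liver. The libraries of both ages overlapped, and the log2 difference was 0.03 ± 0.18 (adjusted p = 0.933). Plg stood at 2.23 and 2.42 FPKM in W8 liver, against 1.92 and 1.57 FPKM in P1 liver. Its W8 libraries were both above its P1 libraries, with a log2 difference of 0.41 ± 0.27 that did not pass (adjusted p = 0.412). For Cp the values were 1.30 and 1.30 FPKM in W8 liver and 1.24 and 1.34 FPKM in P1 liver, a log2 difference of 0.01 ± 0.21 (adjusted p = 0.978). An adjusted p above 0.05 does not show that a level was the same at both ages.

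Over Fga, adult liver had 1.27 and 1.04 FPKM, against 2.30 and 2.57 FPKM in P1 liver. Both W8 libraries were below both P1 libraries, and the log2 difference was -1.04 ± 0.53, which did not pass (adjusted p = 0.271). Its SE came in large part from W8 heart, whose libraries held 0.708 and 2.81 FPKM and share 1 estimate of spread with the livers. Without W8 heart replicate 2 the same difference had an SE of 0.15 and an adjusted p of 0.00642, and it also passed without W8 heart replicate 1. Ahsg had 0.711 and 0.617 FPKM in W8 liver, against 1.17 and 1.56 FPKM in P1 liver, again with no overlap. It fell by 0.95 ± 0.24 on the log2 scale (adjusted p = 0.0496, and 0.0281 without W8 heart replicate 2). The Ahsg values of P1 liver rested on 6 and 30 reads, and counting error alone gave that difference an SE of 0.37, above the 0.24 of the fit. For Fga counting error alone gave 0.27, above the 0.15 of the fit without W8 heart replicate 2. Without any 1 library of ESC, P1 liver or W8 liver, 0 of the 5 genes passed, and the Ahsg call also ended with a pseudocount of 0.01, median centring, a replicate block or no variance trend.

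Thus 1 of the 5 genes fell and 0 rose between P1 and W8 liver, where 8.91% of all 13484 genes tested fell and 0.934% rose. Both W8 libraries were below both P1 libraries for 2 of the 5 genes, as for 51.0% of all genes, and above them for 1 of the 5, as for 19.3% of all genes. The median gene differed by -0.23 on the log2 scale. Over all genes, 126 rose and 1201 fell, against 289 and 484 under median centring. Relative to that median, Plg stood 0.63 higher, Itih3 0.26 and Cp 0.24 higher, Ahsg 0.73 and Fga 0.81 lower.

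**Figure D1:**
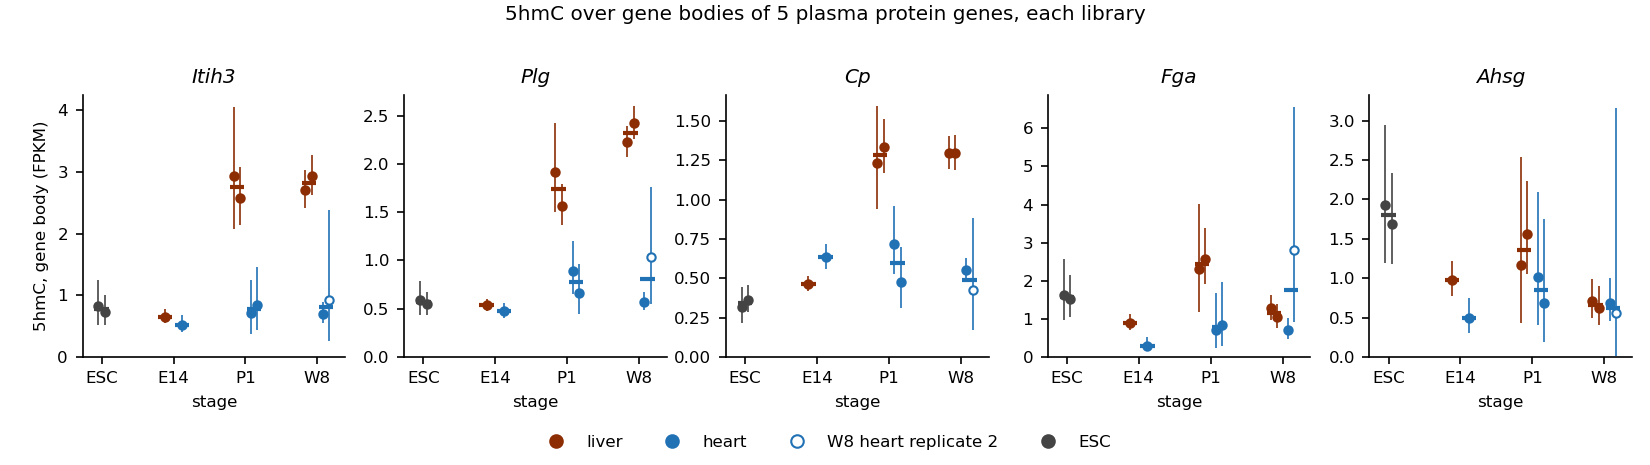
5hmC over the gene bodies of Itih3, Plg, Cp, Fga and Ahsg, in FPKM, against stage (ESC, E14, P1, W8). Points are libraries, with exact 95% Poisson intervals for counting error as vertical lines and group means as bars; the open point is W8 heart replicate 2. Liver stood above heart at W8 for Itih3, Plg and Cp, at 1.30 to 2.94 FPKM, while W8 liver was below P1 liver for Fga and Ahsg.

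Ratios between these genes within a library were compared as well, since a scaling of whole libraries leaves them nearly untouched. The log2 ratio of Plg over Fga was 0.77 and 1.17 in W8 liver, against -0.25 and -0.69 in P1 liver, a shift of 1.44. Plg over Ahsg shifted by 1.36, Itih3 over Fga by 1.07, Cp over Fga by 1.05, Itih3 over Ahsg by 0.99 and Cp over Ahsg by 0.96. Fga over Ahsg shifted by only -0.09, with W8 ratios of 0.78 and 0.68 and P1 ratios of 0.94 and 0.69, which overlap. Itih3 over Cp shifted by 0.02, also with overlap, while Itih3 over Plg shifted by -0.37 and Plg over Cp by 0.39, both without overlap. With a pseudocount of 1, the shifts of Itih3, Plg and Cp over Fga and Ahsg were smaller, at 0.51 to 0.96. Over the 10 pairs of these genes, the W8 and P1 ratios did not overlap in 8, as in 68.1% of all pairs of genes tested, and the pairs share genes. With 2 libraries against 2, a two-sided exact permutation test cannot go below 0.333, which is what those 8 pairs gave (0.417 adjusted over the 10 pairs). The genes were named with such values known, so these shifts are a description.

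Set against E14 liver, Itih3, Plg and Cp, whose level there was below that of Fga and Ahsg, were higher in the adult. Itih3 had 0.649 FPKM in E14 liver, 2.94 and 2.58 FPKM in P1 liver and 2.71 and 2.94 FPKM in W8 liver. Plg had 0.535 FPKM in the single E14 liver library and Cp 0.466 FPKM. W8 liver was higher than E14 liver by 2.00 ± 0.22 on the log2 scale for Itih3 (adjusted p = 0.0117), by 1.98 ± 0.33 for Plg (adjusted p = 0.0148) and by 1.34 ± 0.26 for Cp (adjusted p = 0.0188). These 3 of 5 genes rose, as did 17.9% of all genes, and the median gene differed by 0.47. Fga, at 0.897 FPKM in E14 liver, differed by 0.33 ± 0.64 (adjusted p = 0.742). Ahsg, at 0.980 FPKM in E14 liver, differed by -0.52 ± 0.29 (adjusted p = 0.234). Among 13549 genes, the E14 liver level of Ahsg stood at percentile 91.5 and that of Fga at 88.3, against 68.6 for Itih3, 52.1 for Plg and 40.0 for Cp. In W8 liver the order was another: Itih3 stood at percentile 98.1, Plg at 95.2, Cp at 75.8, Fga at 70.3 and Ahsg at 42.8. E14 liver had 1 library and was assumed to vary like the replicated groups. Under median centring the Cp call was lost (0.84 ± 0.24, adjusted p = 0.0659), and 467 genes rose and 1174 fell in the table, against 2414 and 381 without it; with both liver groups fitted alone Ahsg fell as well (adjusted p = 0.0333). Without either W8 liver library, 0 of the 5 genes and 0 genes of the table passed in this comparison at an adjusted p under 0.05 in limma, and 3 of the 5 were under an unadjusted 0.05.

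Adult liver and adult heart differed over the same 3 bodies. Itih3 had 2.71 and 2.94 FPKM in W8 liver, against 0.701 and 0.923 FPKM in W8 heart, a log2 difference of 1.72 ± 0.18 (adjusted p = 0.00423). Plg had 0.573 and 1.03 FPKM in W8 heart and was higher in W8 liver by 1.50 ± 0.27 (adjusted p = 0.0107). Cp had 0.552 and 0.428 FPKM in W8 heart and was higher in W8 liver by 1.29 ± 0.21 (adjusted p = 0.00847). Counting error alone gave the Itih3 difference an SE of 0.376 and that of Cp 0.281, both above the SE of the fit. For Plg it gave 0.211, below that of the fit. W8 heart replicate 2 held 4 reads over Itih3. Over Ahsg the tissues overlapped, at 0.711 and 0.617 FPKM in W8 liver and 0.689 and 0.560 FPKM in W8 heart, and the log2 difference was 0.08 ± 0.24 (adjusted p = 0.808). Counting error alone gave that Ahsg difference an SE of 0.758, and the 0.560 FPKM was 1 read, so the tissues may still differ there. Fga differed by -0.30 ± 0.53 (adjusted p = 0.687), a sign that rested on the 5 reads of W8 heart replicate 2. Without that library Fga was higher in W8 liver by 0.64 ± 0.18 (adjusted p = 0.0331), and Itih3, Plg and Cp were higher by 1.90, 1.89 and 1.13. In all libraries 3 of the 5 genes rose, as did 21.3% of all genes, and liver was above heart with no overlap for 3 of the 5, as for 46.4% of all genes. Over all genes, 2871 rose and 1280 fell, against 1357 and 2212 under median centring, where the same 3 of the 5 passed. Without either W8 liver library, or with W8 liver and W8 heart fitted alone, no gene of the table passed in limma, and 3 of the 5 were under an unadjusted 0.05.

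In the newborn, liver was above heart in every library for all 5 genes, as for 44.0% of all genes. Ahsg had 1.17 and 1.56 FPKM in P1 liver, against 1.02 and 0.683 FPKM in P1 heart, a log2 difference of 0.65 ± 0.24 (adjusted p = 0.153). Fga had 2.30 and 2.57 FPKM in P1 liver, against 0.719 and 0.844 FPKM in P1 heart, a log2 difference of 1.56 ± 0.53 (adjusted p = 0.134). Itih3, at 0.714 and 0.839 FPKM in P1 heart, was higher in P1 liver by 1.74 ± 0.18 (adjusted p = 0.0289). It was the 1 gene of the 5 that passed, where 1.93% of all genes rose; over all genes, 260 rose and 47 fell, against 52 and 95 under median centring, where Itih3 passed too. Plg (1.10 ± 0.27, adjusted p = 0.0768) and Cp (1.03 ± 0.21, adjusted p = 0.0604) missed the threshold. Counting error alone gave the Itih3 difference an SE of 0.324 and that of Ahsg 0.555, above the 0.18 and 0.24 of the fit. Itih3 had 12 and 12 reads in P1 heart. Without W8 heart replicate 2, the Fga difference had an SE of 0.146 in the fit, below the 0.512 that counting error alone gave. Fga had 5 and 5 reads in P1 heart. Without any 1 library of ESC, P1 heart, P1 liver or W8 liver, with P1 liver and P1 heart fitted alone, or with a replicate block, 0 passed.

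The change of the tissue difference with age was tested by the interaction of tissue and age, which passed for 0 of the 5 genes and for 0.0148% of all genes. It was -1.85 ± 0.74 on the log2 scale for Fga (adjusted p = 0.242) and -0.91 without W8 heart replicate 2 (adjusted p = 0.0901). Without W8 heart replicate 1, which leaves the 5 reads of replicate 2 to stand for W8 heart, it was -2.80 and passed (adjusted p = 0.00170). Ahsg had -0.56 ± 0.33 (adjusted p = 0.389), Plg 0.40 ± 0.39 (adjusted p = 0.581), Cp 0.26 ± 0.30 (adjusted p = 0.656) and Itih3 -0.02 ± 0.25 (adjusted p = 0.977). Fga alone was under 0.05 before adjustment (unadjusted p = 0.0414). In heart, W8 against P1 passed for 0 of the 5 genes and 0.0148% of all genes, with differences of -0.39 (Ahsg) to 0.82 (Fga) that shrank to -0.13 for Fga without W8 heart replicate 2. None of the 5 reached an unadjusted p of 0.05 there; without W8 heart replicate 1, Fga rose by 1.76 (adjusted p = 0.00137).

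The level in ESC, an undifferentiated line, differed between the genes. Itih3 was higher in P1 liver than in ESC by 1.73 ± 0.18 on the log2 scale (adjusted p = 0.00712), Plg by 1.49 ± 0.27 (adjusted p = 0.0177) and Cp by 1.72 ± 0.21 (adjusted p = 0.00884). For Itih3 counting error alone gave an SE of 0.236, above that of the fit. Cp was the lowest of the 5 in ESC, at 0.317 and 0.363 FPKM. Ahsg had 1.17 and 1.56 FPKM in P1 liver, against 1.93 and 1.68 FPKM in ESC, its highest values in any group, a log2 difference of -0.40 ± 0.24 (adjusted p = 0.293). Fga had 2.30 and 2.57 FPKM in P1 liver, against 1.63 and 1.52 FPKM in ESC, a log2 difference of 0.60 ± 0.53 (adjusted p = 0.480). Thus 3 of the 5 genes rose, as did 10.4% of all genes; leaving out ESC replicate 1, ESC replicate 2 or P1 liver replicate 1 left 0 that passed, and 3 under an unadjusted 0.05. Without W8 heart replicate 2, the Fga difference had an SE of 0.146 in the fit, below the 0.314 that counting error alone gave.

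**Figure D2:**
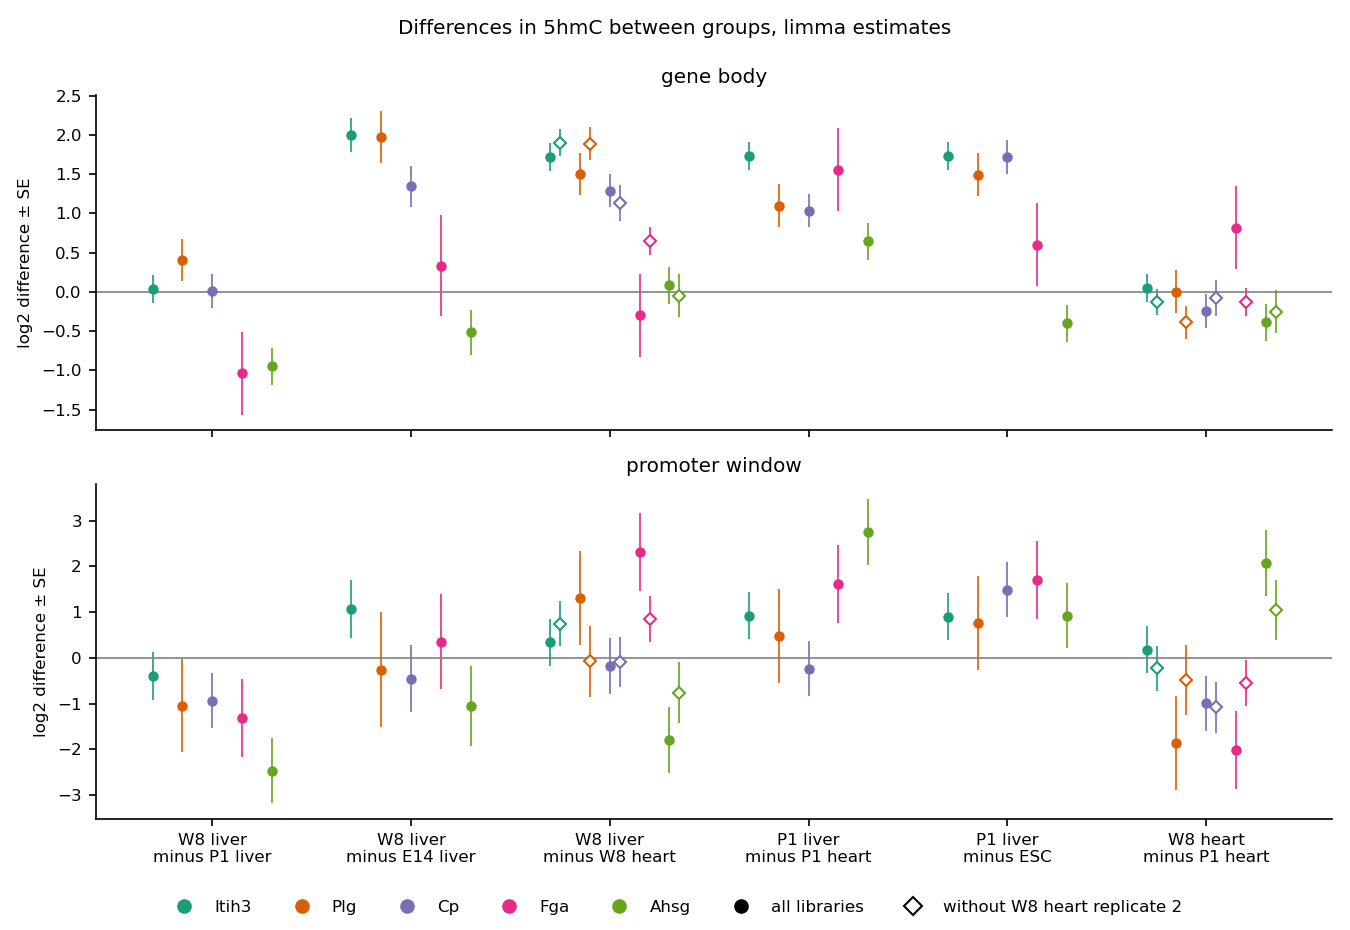
Log2 differences in 5hmC (vertical axis) over gene bodies (top) and promoter windows (bottom) for 6 comparisons between groups. Points are limma estimates with SE bars, and open diamonds show the W8 heart comparisons without W8 heart replicate 2; over bodies, Fga and Ahsg lie near -1 in W8 against P1 liver while Itih3, Plg and Cp lie between 0.01 and 0.41.

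Over promoter windows all 5 genes had lower FPKM in adult than in newborn liver, though none passed and the Itih3 window turned to 0.076 under median centring. Both W8 liver libraries were below both P1 liver libraries for 5 of the 5 windows, as for 45.0% of all windows, and the median of all windows differed by -0.39 on the log2 scale. Ahsg had 0.394 and 0.583 FPKM in W8 liver, against 4.19 and 2.11 FPKM in P1 liver, a log2 difference of -2.46 ± 0.72 (adjusted p = 0.557, unadjusted p = 0.00388). Among all windows the mean level of Ahsg stood at percentile 34.0 in W8 liver and at 99.3 in P1 liver. Fga had 0.954 and 0.895 FPKM in W8 liver, against 2.36 and 2.46 FPKM in P1 liver, a log2 difference of -1.32 ± 0.85 (adjusted p = 0.991). Plg differed by -1.04 ± 1.03 and Cp by -0.94 ± 0.60. Itih3 had 1.35 and 1.54 FPKM in W8 liver, against 2.10 and 1.76 FPKM in P1 liver, and its difference of -0.40 ± 0.52 was that of the median window.

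Of all windows 0.00741% passed in W8 against P1 liver. In simulated data the fit called 0% of windows changed by a log2 of 2 there, so a window that did not pass may still differ. In the other comparisons 0 of the 5 windows passed in limma, with 0.00 to 0.163% of all windows called. Before adjustment, Fga in W8 liver against W8 heart was under 0.05 (2.32 ± 0.85, unadjusted p = 0.0165; 0.85 without W8 heart replicate 2), where its window in W8 heart replicate 2 held no read, for which the exact 95% Poisson interval reaches 2.83 FPKM. So was Cp in P1 liver against ESC (1.49 ± 0.60, unadjusted p = 0.0266) and Fga in W8 against P1 heart (-2.02 ± 0.85, unadjusted p = 0.0325; -0.55 without W8 heart replicate 2). Ahsg was under it in the comparisons of W8 and P1 liver with the heart of the same age and of W8 with P1 heart, and Itih3 and Plg in none. Without W8 heart replicate 1, which leaves the shallow library alone for W8 heart, up to 3 of the 5 windows passed in the comparisons with W8 heart.

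Over the promoter window of Ahsg, liver and heart differed in opposite directions in the newborn and the adult. In the newborn it had 4.19 and 2.11 FPKM in liver, against 0.196 and 0.692 FPKM in heart, a log2 difference of 2.75 ± 0.72 (adjusted p = 0.384). In the adult it had 0.394 and 0.583 FPKM in liver, against 0.863 and 3.84 FPKM in heart, a log2 difference of -1.79 ± 0.72 (adjusted p = 0.264; -0.76 without W8 heart replicate 2). The W8 heart values rested on 25 and 5 reads and the P1 heart values on 1 and 3 reads. In ESC the window had 1.86 and 1.26 FPKM, in E14 liver 1.08 FPKM and in E14 heart 0.346 FPKM. Across the stages of liver, the window was thus highest in the newborn and lowest in the adult. P1 was the only liver stage with paired 75 bp reads, so its higher level cannot be told apart from read format.

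**Figure D3:**
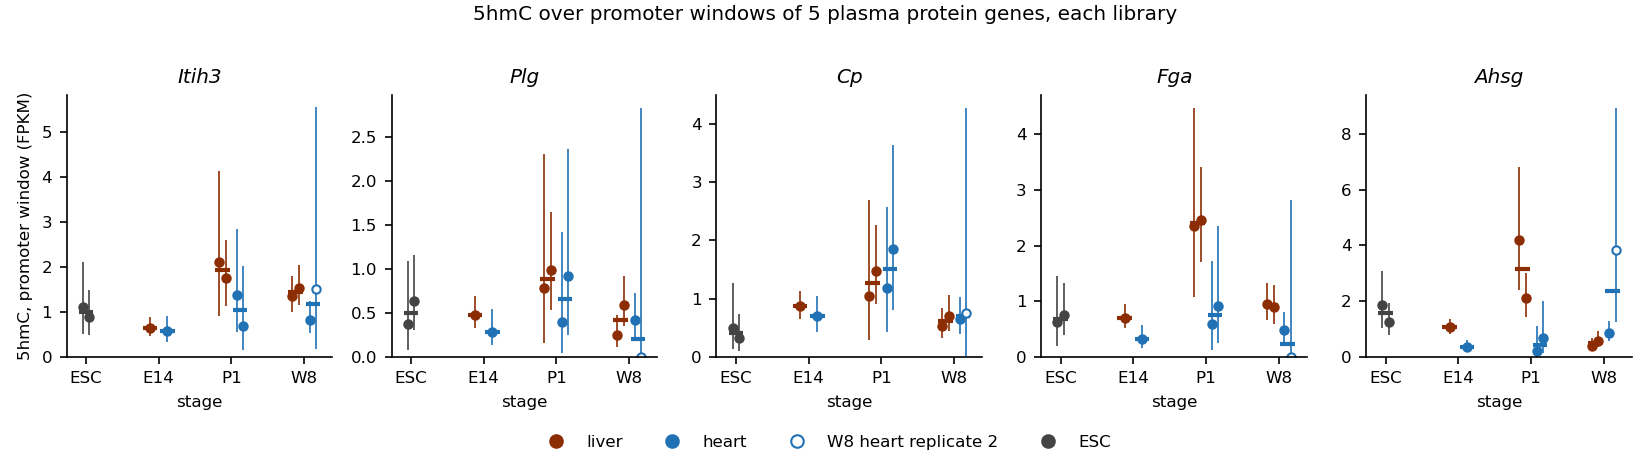
5hmC over the 4000 bp promoter windows of Itih3, Plg, Cp, Fga and Ahsg, in FPKM, against stage, with libraries, exact 95% Poisson intervals and group means drawn as for the gene bodies. In FPKM all 5 windows were lower in W8 liver than in P1 liver (Itih3 not under median centring), with the widest gap for Ahsg, at 0.394 and 0.583 FPKM against 4.19 and 2.11 FPKM.

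Chromosomal neighbours of the same protein families were read beside them. Itih4 and Itih1, which flank Itih3 and encode related proteins, did not differ beyond their error either: Itih1 had 2.97 and 2.57 FPKM in W8 liver, against 2.42 and 2.13 FPKM in P1 liver (log2 difference 0.27 ± 0.42, adjusted p = 0.749), and Itih4 2.61 and 2.36 FPKM against 2.48 and 1.96 FPKM (0.17 ± 0.42, adjusted p = 0.858). Fgg, the fibrinogen gamma chain gene beside Fga, had 0.696 and 0.405 FPKM in W8 liver, against 0.807 and 2.11 FPKM in P1 liver, a log2 difference of -1.19 ± 0.64 (adjusted p = 0.302). The direction over Fgg was that over Fga, with no overlap between the ages, as for 51.0% of all genes, and neither passed. The Fgg body spanned 5195 bp. In P1 liver replicate 1, with 604012 reads over all bodies, the 0.807 FPKM of Fgg rested on few reads. The ages did not overlap for Itih1 either, with W8 liver above P1 liver, as for 19.3% of all genes.

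Genes beside Ahsg had differences of the opposite sign. Fetub, the paralogous fetuin-B gene next to it, had 1.43 and 1.42 FPKM in W8 liver, against 0.595 and 0.681 FPKM in P1 liver, a log2 difference of 1.07 ± 0.34 (adjusted p = 0.0936). Hrg, which encodes histidine-rich glycoprotein, had 2.33 and 3.08 FPKM in W8 liver, against 1.47 and 1.34 FPKM in P1 liver (0.90 ± 0.82, adjusted p = 0.560). Kng1, the kininogen gene, had 1.54 and 1.80 FPKM in W8 liver, against 1.20 and 1.18 FPKM in P1 liver (0.46 ± 0.49, adjusted p = 0.628). W8 liver was thus above P1 liver in every library for these 3 genes, as for 19.3% of all genes, in a stretch of chromosome 16. It was below P1 liver for Ahsg, as for 51.0% of all genes. Fetub, Hrg and Kng1 did not pass. The differences between these genes were not tested.

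The neighbours of Plg and Cp are of other families. Slc22a3, a transporter of organic cations beside Plg, had 0.494 and 0.429 FPKM in W8 liver, against 0.807 and 0.646 FPKM in P1 liver (-0.58 ± 0.24, adjusted p = 0.179); its W8 libraries were below its P1 libraries, and those of Plg above. Hps3, a gene of lysosome-related organelle formation that runs against Cp, had 0.934 and 1.02 FPKM in W8 liver, against 1.15 and 1.33 FPKM in P1 liver (-0.32 ± 0.38, adjusted p = 0.673). The deposited body of Cp overlapped that of Hps3 over 13201 bp, 26.4% of it, and the pull-down does not tell which gene such reads belong to.

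**Figure D4:**
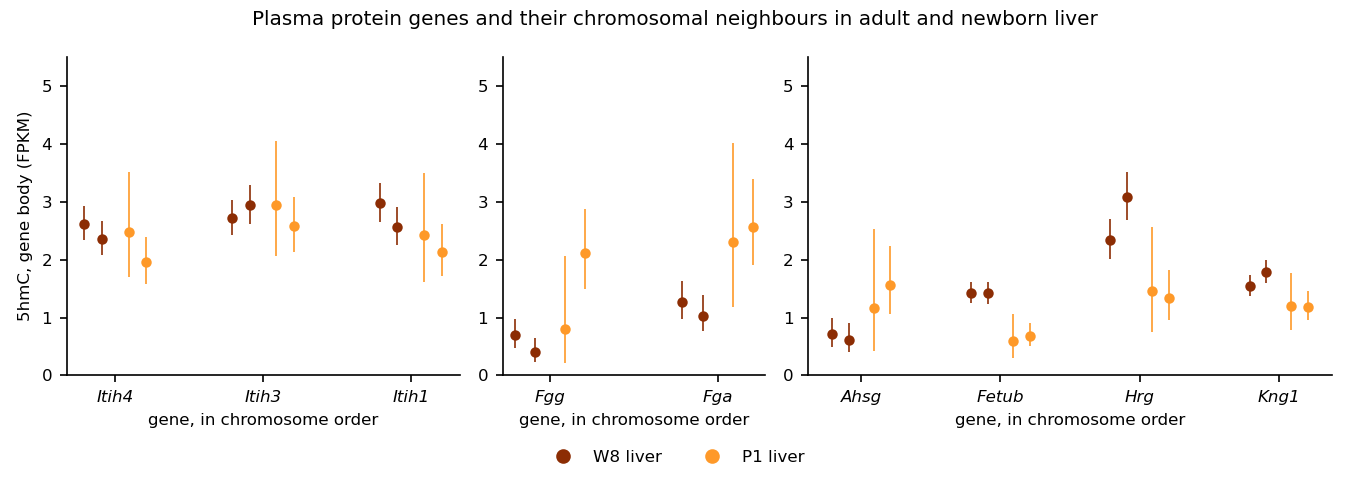
5hmC over gene bodies, in FPKM, of Itih3, Fga and Ahsg and of genes near them in chromosome order, in W8 liver (dark) and P1 liver (light). Points are libraries with exact 95% Poisson intervals; Fga and Fgg were lower in W8 liver, as was Ahsg, while Fetub, Hrg and Kng1 near Ahsg were higher in W8 liver in every library.

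A list of 84 plasma protein genes placed the 5 among their kind, of which 60 were measured and passed the filter on low values. Between W8 and P1 liver 2 rose and 1 fell, where 0.934% of all genes rose and 8.91% fell, with a median log2 difference of 0.23 against -0.23 over all genes, and without the 5 genes 2 of 55 rose, 0 fell and the median was 0.24. The 14 measured complement genes had a median of 0.45, and C8b, a subunit of the membrane attack complex, rose (0.72 ± 0.14, adjusted p = 0.0254). The highest difference was that of C9, another subunit of that complex (1.43 ± 0.39, adjusted p = 0.0660), and Mbl2, a mannose-binding lectin, was also among the highest (1.12 ± 0.79, adjusted p = 0.432). At the low end stood Vtn, the adhesion protein vitronectin (-1.92 ± 1.46, adjusted p = 0.476), and Alb, serum albumin (-1.82 ± 0.63, adjusted p = 0.120).

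By role, the 5 inter-alpha-trypsin inhibitor genes had a median of 0.17 and the 5 fibrinolysis genes 0.75, with Itih3 the lowest of its group at 0.03 and Plg at 0.41. In each of these groups 5 of 5 differences were above 0 and 0 passed. The 17 coagulation genes had a median of 0.24, where 11 differences were above 0, and Fga at -1.04 was among the 6 below it. The 11 carriers and cystatin-type inhibitors had a median of -0.33, where 7 differences were below 0, Ahsg at -0.95 among them and Cp at 0.01 not. Alb had 0.279 and 0.324 FPKM in W8 liver, against 1.15 and 1.37 FPKM in P1 liver. Both adult libraries were below both newborn ones, as for 51.0% of all genes, and the Alb difference did not pass in limma (adjusted p = 0.120). In W8 heart Alb had 0.320 FPKM in replicate 1 and 1.57 FPKM in the shallow replicate 2, on 39 reads over both. Against W8 heart, 44 of the 60 genes rose in W8 liver with a median of 1.62, where 21.3% of all genes rose and their median was 0.32. Against E14 liver 29 of the 60 rose (17.9% of all genes). In P1 liver 14 of the 60 rose against P1 heart (1.93% of all genes) and 15 against ESC (10.4% of all genes).

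**Figure D5:**
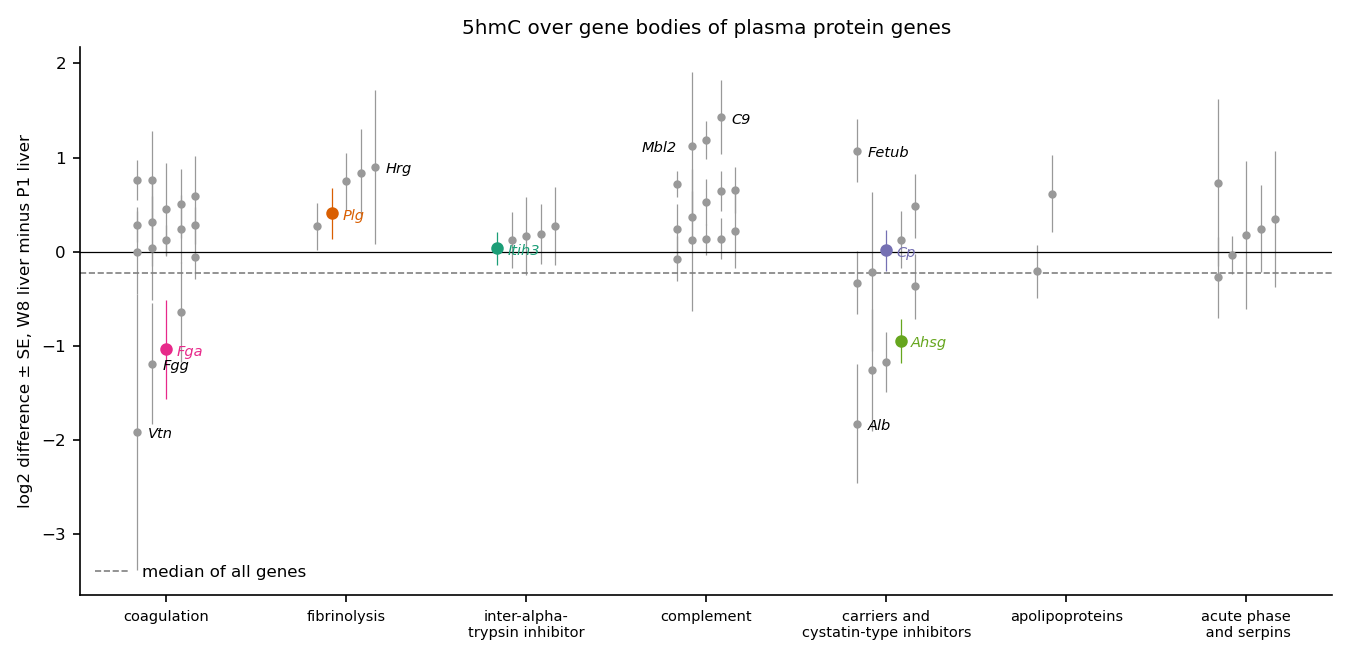
Log2 difference in gene-body 5hmC, W8 liver minus P1 liver, with SE, for the 60 measured plasma protein genes grouped by role. The coloured points are Itih3 (0.03), Plg (0.41), Cp (0.01), Fga (-1.04) and Ahsg (-0.95), and the dashed line is the median of all genes at -0.23.

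Genes that mark other cells were read in W8 against P1 liver beside all genes, of which 8.91% fell and 0.934% rose, with a median of -0.23. The 17 measured genes of erythroid and blood progenitor cells summed to 11.2 and 12.4 FPKM at their lowest and highest in W8 liver, against 21.7 and 23.4 FPKM in P1 liver, and 14.9 FPKM in E14 liver. The sum was also 19.7 to 21.9 FPKM in ESC and 14.9 to 17.8 FPKM in P1 heart. In W8 heart it was 11.4 to 15.0 FPKM and in E14 heart 11.4 FPKM. Of these 17 genes 5 fell, 0 rose and the median log2 difference was -1.13, and no marker was at 0 in a liver library. Of 14 stellate and bile duct cell markers 3 fell (median -0.79) and of 15 endothelial markers 6 fell (median -0.53). Of 10 macrophage markers 2 fell (median -0.42). Lists that mark no liver cell also had medians below that of all genes. Of 17 cardiac sarcomere genes 1 fell (median -0.59), and of 10 pluripotency genes 1 fell (median -0.51). In each of these lists 0 rose. For 16 hepatocyte transcription factor genes the sum was 31.2 to 32.6 FPKM in W8 liver, against 24.6 to 28.4 FPKM in P1 liver, 10.4 FPKM in E14 liver and 9.69 to 14.8 FPKM in hearts. Of these 1 rose between P1 and W8 liver and 0 fell (median 0.35). The part of these cell types in the lower adult values of Fga and Ahsg was not tested.

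Across the 12 libraries the bodies of Itih3, Plg and Cp followed each other, with a Pearson correlation of log2 levels of 0.956 for Itih3 with Plg, 0.866 for Plg with Cp and 0.857 for Itih3 with Cp. Fga was at 0.536 with Itih3, 0.487 with Ahsg, 0.477 with Plg and 0.139 with Cp. Ahsg was at 0.0763 with Itih3, -0.0893 with Plg and -0.159 with Cp. The libraries share tissue, age and read format, so these values are descriptions. All correlations here include W8 heart replicate 2, where Fga had its highest value, 2.81 FPKM on 5 reads, and Ahsg rested on 1 read. Correlations without that library were not computed. Among 6771 genes of at least median level, those most like Itih3 were Selenbp1 (0.973), Iqgap2 (0.973) and Hebp1 (0.968). Those most like Plg were Slc22a23 (0.976), Cd302 (0.975) and Plcxd2 (0.971), and those most like Cp were C1galt1 (0.990), Tlk1 (0.969) and Epb4.1 (0.967). Fga had Ffar2 (0.938), Fcgr3 (0.933) and Arv1 (0.929), and Ahsg had Brsk1 (0.936), Csdc2 (0.933) and Dlg4 (0.922). No gene of the plasma protein list was among these 15.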

How the data were processed

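5hmC was enriched by chemical labelling and capture, per the labels' protocols, and reads were aligned with Bowtie2 to mm9, per the submitters' processing notes; the sources used here give neither its version nor the read counter. The authors deposited 1 table of FPKM per library, per the file headers, for a promoter window of 4000 bp and the gene body, which begins 2000 bp after the start, of 13581 genes. Input DNA without enrichment was not analysed here. Starts count from 0 in the tables and are printed from 1. Steps between low window values gave the reads per region, approximately in single-end libraries; Poisson intervals and counting SEs from them cover counting error only.

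Values were log2(FPKM + 0.0746) for bodies and log2(FPKM + 0.0723) for windows, a pseudocount of the median non-zero FPKM over 10, which understates the fold changes of low genes. Genes with a mean of at least 0.0809 (bodies, 13484) or 0.0739 FPKM (windows, 13504) were kept, among them all 5. The 12 libraries were fitted with 7 group means and a variance trend in limma 3.58.1 (R 4.3.3). The fit was tested on simulated data with the real means and spread, where some genes were changed in W8 liver. At an adjusted p under 0.05 for W8 against P1 liver, it called 17% of bodies changed by a log2 of 1. Of bodies changed by 2 it called 69%, and of windows changed by 1 or 2 it called 0%. Nothing in the labels says whether replicates are separate animals or cultures, and p-values measure a spread between libraries that may be technical.

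The genes, lists and tests were chosen with earlier results of these data known. Beside the 5 genes the text names listed neighbours, the 3 highest and 3 lowest plasma protein genes of W8 against P1 liver (some of these are not reported here), Alb and Hnf4a, and the 3 genes most correlated with each; C8b was named after its value was seen. Alternatives were other pseudocounts and filters, median centring, the compared groups alone, a replicate block, no variance trend and leaving out each library.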

Additional observations from a re-analysis of the deposited data

Results flagged for a closer look

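The promoter window of Ahsg is listed because its libraries moved opposite ways with age in the 2 tissues. In liver both W8 libraries (0.394 and 0.583 FPKM) were below both P1 libraries (4.19 and 2.11 FPKM), as for 45.0% of all windows. In heart both W8 libraries (0.863 and 3.84 FPKM) were above both P1 libraries (0.196 and 0.692 FPKM). The share of all windows that moved so in heart, or opposite ways in both tissues, was not counted, so how rare this pattern is cannot be said. The interaction of tissue and age was -4.54 ± 1.01 on the log2 scale, with an unadjusted p of 0.000486 and an adjusted p of 0.715 over all windows in limma, so it did not pass. Without W8 heart replicate 2, whose window held 5 reads, it was -3.51 ± 0.86 (adjusted p = 0.784). The P1 heart values rest on 1 and 3 reads. No outlying library could be looked for, since groups held 1 or 2 libraries.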

How the results depend on the processing

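Counts of the 5 genes called moved with the setting. In W8 against P1 liver 1 body was called with all libraries, 0 with a pseudocount of 0.01, 0 with median centring, 0 without a variance trend, 0 with a replicate block and 2 with the compared groups alone; leaving out single libraries gave 0 to 2. In P1 liver against P1 heart (1 body) it was 3 with a pseudocount of 1, 0 with the compared groups alone, 0 with the replicate block and 0 to 4 without single libraries. In W8 liver against W8 heart (3 bodies) it was 0 with the compared groups alone and 0 to 4 without single libraries, against E14 liver (3) 2 with median centring, 4 with the compared groups alone and 0 to 3 without single libraries, and in P1 liver against ESC (3) 0 to 4. The interaction and W8 against P1 heart (0 bodies each) gave 0 to 1. Over promoter windows, with 0 called, the compared groups alone gave 1 in W8 against P1 liver, 2 in W8 against E14 liver and 1 in P1 liver against ESC, and a pseudocount of 1 gave 1 in P1 liver against ESC and 1 against P1 heart. Without single libraries, windows gave 0 to 2 against ESC, 0 to 1 in P1 liver against P1 heart, 0 to 3 in W8 against P1 heart, 0 to 3 in W8 liver against W8 heart and 0 to 2 for the interaction. Same-numbered libraries did not deviate together (correlations of -0.0203 to 0.0420), so the numbers were not taken to pair samples, and the replicate block changed no other count of calls. The causes were not tested, except that leaving out a library or fitting fewer groups leaves fewer samples.

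Some differences changed sign. Under median centring these were Ahsg in W8 liver against heart (-0.23), Cp in W8 against P1 heart (0.081), Fga in W8 against E14 liver (-0.18) and the Itih3 window in W8 against P1 liver (0.076). With a pseudocount of 1 the Fga window's interaction was -0.30, and with 0.01 Plg in W8 against P1 heart was -0.0010. Without single libraries, bodies ranged as follows. In W8 against P1 liver Itih3 lay between -0.058 and 0.13 and Cp between -0.039 and 0.067, with Itih3 over Cp between -0.13 and 0.17 and Fga over Ahsg between -0.21 and 0.037. In W8 liver against heart Ahsg lay between -0.051 and 0.22 and Fga between -1.24 and 0.64. In W8 against P1 heart the ranges were -0.13 to 0.23 for Itih3, -0.39 to 0.39 for Plg, -0.50 to 0.020 for Cp and -0.13 to 1.76 for Fga. Interactions lay between -0.20 and 0.17 for Itih3 and between -0.0055 and 0.52 for Cp. Fga against E14 liver lay between 0.19 and 0.47. Windows ranged from -0.52 to -0.28 (Itih3) in W8 against P1 liver, and in W8 liver against heart from -0.069 to 0.75 (Itih3), -0.075 to 2.68 (Plg) and -0.36 to 0.0078 (Cp). In P1 liver against P1 heart Plg lay between -0.063 and 1.03 and Cp between -0.54 and 0.075, in W8 against E14 liver Plg between -0.77 and 0.25, and in W8 against P1 heart Itih3 between -0.28 and 0.64. Window interactions lay between -0.56 and 2.19 for Plg, -0.25 and 0.36 for Cp and -0.76 and 2.17 for Fga. Leaving out single libraries in the pairs was chosen after seeing the data.

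Limits: reads per body were few over Fga and Ahsg, and over Itih3 in P1 heart and in W8 heart replicate 2. Read format goes with age, each group had 1 or 2 libraries, and levels are relative within a library.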
